A study of Mus musculus with 26 samples.

Results

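The genes described here encode Mediator, RNA polymerase II (Pol II) and the general transcription factors that load Pol II at promoters. They were chosen by symbol, with earlier results of these data known, from the protein-coding genes of the RefSeq annotation of mouse GRCm38 (mm10). The symbols were Med or Taf followed only by digits, all that start with Polr2 or Gtf2, and Cdk8, Cdk19, Ccnc and Tbp. The rule gave 75 of 21521 located protein-coding genes, made up of 31 Mediator genes, 13 Polr2 genes, 13 genes of the factors TFIIA, TFIIB, TFIIE, TFIIF and TFIIH, 15 TFIID genes and 3 genes of the TFII-I family. Their positions were set against the boundaries of topologically associating domains (TADs), stretches of chromosome whose parts contact each other more than their surroundings. Boundaries came from Micro-C, in which micrococcal nuclease cuts cross-linked chromatin and ligation records contacts. The study made 26 such libraries from G1-phase cells of 1 mouse line, RAD21-dTAG, derived from Bruce-4 on a C57BL/6J genotype, in which the cohesin subunit RAD21 carries a degradable tag in every group, vehicle included. Embryonic stem cells (ESCs) grown in serum/2i/LIF received 0.05% v/v DMSO (6 libraries), 500 nM dTAG, which degrades RAD21 (6 libraries), or 20 µM of the p300/CBP acetyltransferase inhibitor A485 (6 libraries). Epiblast-like cells (EpiLCs) received DMSO or dTAG (4 libraries each). The boundary list used here pools the DMSO-treated ESC libraries and holds 3515 intervals, each 25 kb wide, with no score, no replicate values and unknown contact depth. The other groups were not analysed here. The cell type could not be checked against marker genes, since the list carries no expression values, and every result below is a description of 1 list with no replicate error.

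Transcription of a protein-coding gene starts when TFIID, built from the TATA-binding protein TBP and its associated TAF subunits, settles on the core promoter. TFIIA and TFIIB then join, Pol II arrives with TFIIF, and TFIIE and TFIIH complete the assembly and help open the DNA. Mediator bridges factors bound at enhancers to this assembly, with head and middle modules that contact Pol II, a tail that contacts activators, and a separable kinase module.

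Of the 75 genes, 26 lay at or close to a domain boundary, from each complex except the TFII-I family. A gene was called near a boundary when either end of its annotated span lay inside a boundary interval or within 10 kb of it. By that rule 26 of 75 genes were near (34.7%, 95% Wilson interval 24.9 to 45.9, which covers counting error only), against 3935 of 21521 (18.3%) of all located protein-coding genes. An end lay inside the interval itself for 17 of 75 (22.7%), against 11.7% of all. Both ends lay in the same interval for 6 of 75 (8%), against 2.67% of all. The median distance to a boundary was 68.1 kb (quartiles 2.72 and 187 kb), with a 95% order-statistic interval of 30.8 to 117 kb, and the median of all protein-coding genes was 98.9 kb. The 26 near genes lay at 26 different boundaries, and the 3935 near genes of all lay at 2253. No test of the difference from other genes was made. With a window of 50 kb the shares were closer together, 34 of 75 (45.3%) against 35.6% of all.

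**Figure D1:**
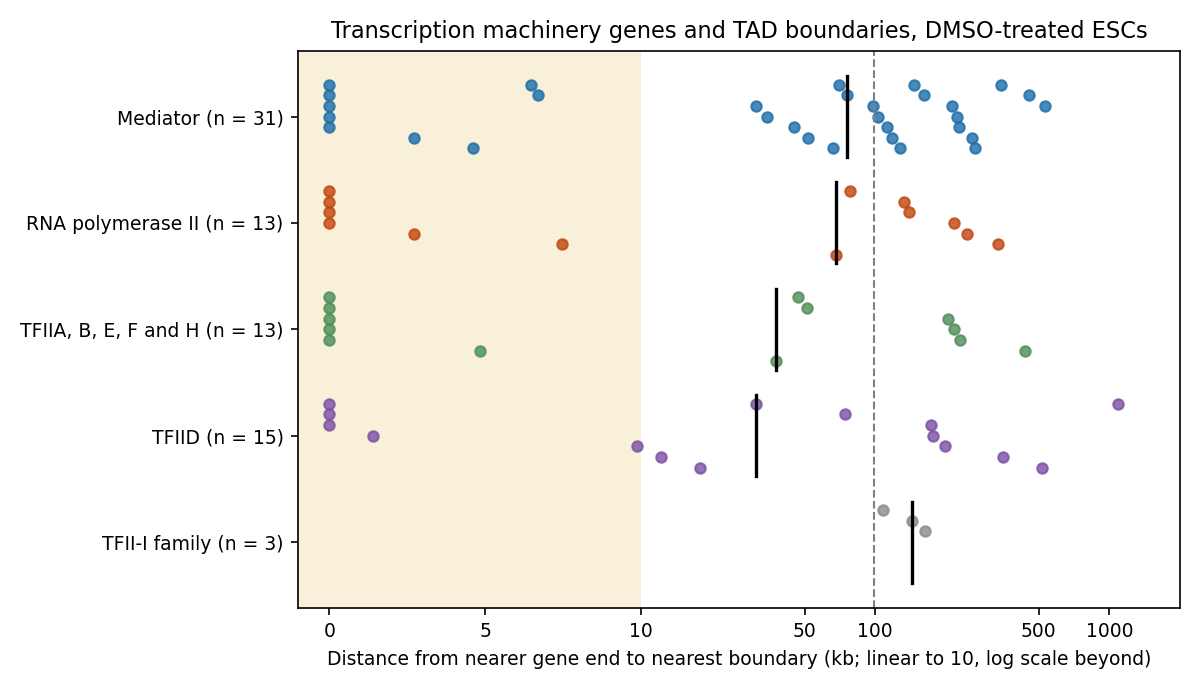
Distance in kb from the nearer end of each gene to the nearest boundary interval, 1 point per gene, by complex; points are spread vertically only for legibility. Black bars are medians, the shaded band is the 10 kb window, the dashed line is the median of all protein-coding genes (98.9 kb), and the axis is linear up to 10 kb and logarithmic beyond; each group except the TFII-I family has genes at 0.

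**Figure D2:**
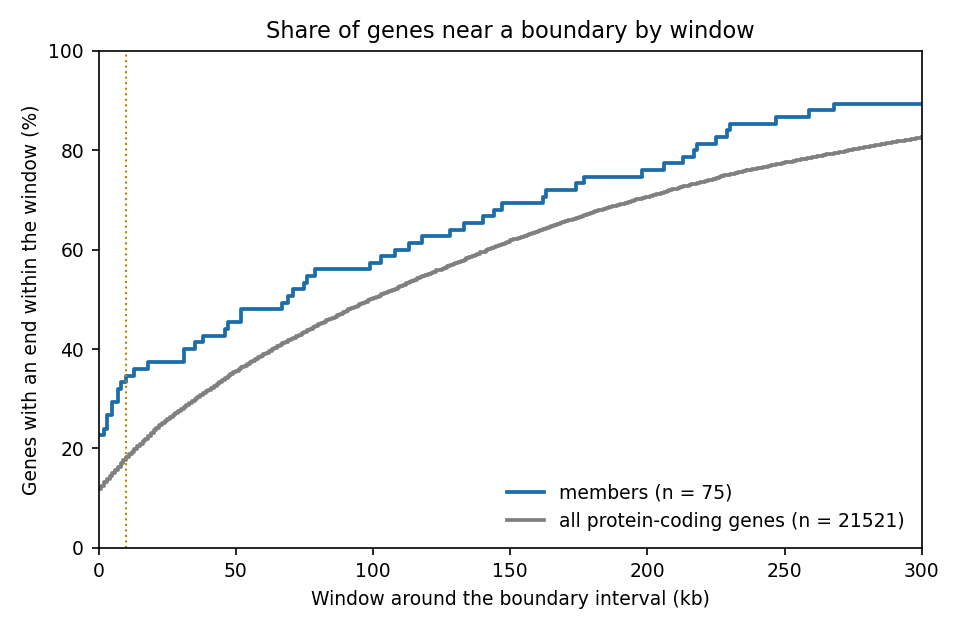
Share of genes in percent with an end within a given window, in kb, of a boundary interval, for the 75 genes (blue) and all 21521 protein-coding genes (grey); the dotted line marks 10 kb. The blue line starts at 22.7% and the grey line at 11.7%, and at 50 kb they stand at 45.3% and 35.6%.

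Among Mediator genes, 5 of 31 had an end inside a boundary (16.1%, against 11.7% of all protein-coding genes). With the 10 kb window 9 of 31 were near (29.0%, against 18.3% of all). The gap was narrower by other measures: by gene midpoint 5 of 31 were near (16.1%, against 11.2% of all), from the boundary's midpoint 4 of 31 (12.9%, against 9.59%), and within 50 kb 12 of 31 (38.7%, against 35.6%). In the head, the module that binds Pol II, Med22 and Med6 were near, out of 7 genes. Med22 (gene ID 20933, chromosome 2, 26905267 to 26910642) lay whole within the boundary from 26900001 to 26925000. That interval also held ends of Rpl7a, which encodes a ribosomal protein, and of Surf1, Surf2, Surf4 and Surf6, the other genes of the compact surfeit locus. Med6 (chromosome 12) had its 3′ end in a boundary and its 5′ end 20.0 kb outside. Of the remaining head genes, Med8 and Med17 lay 34.3 and 45.1 kb away and Med11, at 452 kb, was the farthest.

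In the Mediator middle module 3 of 9 genes were near. Med7 (chromosome 11, 46436936 to 46442721) lay whole within its boundary. The end of Med4 was 6.46 kb short of its boundary, and the 200 kb domain around it held 1 other protein-coding gene, Itm2b. Med1, the subunit that nuclear receptors contact, had its 5′ end 6.69 kb from the boundary on chromosome 11 at 98200001 to 98225000. The gene with an end inside that interval was Cdk12, which encodes a kinase of the Pol II C-terminal domain. In the tail, Med23 and Med24 were near, out of 5 genes. Med23, a target of signal-responsive activators, had an end inside a boundary on chromosome 10 together with Arg1, the gene of arginase. Med24 lay 4.6 kb from a boundary that held ends of Psmd3, a proteasome gene, and Gsdma. The tail also held the farthest Mediator gene, Med25, at 532 kb.

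Med14, the scaffold on which the modules join, was 112 kb away from its closest boundary, within a 500 kb domain of chromosome X. Of Med27, Med28, Med29 and Med30, which sit between head and tail, only Med29 was near. Med29 (chromosome 7, 28385247 to 28392690) lay whole within a boundary, and the 5′ end of Paf1, a gene of the PAF1 elongation complex, was 306 bp from its own on the opposite strand. In the kinase module, Ccnc, the cyclin partner of CDK8, had its 5′ end 2.70 kb from a boundary that had no other protein-coding gene near it. Cdk8 and its paralog Cdk19 lay 30.8 and 66.2 kb away, and Med13 and Med12 lay 117 and 224 kb away.

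Of 13 Polr2 genes, 6 were near (46.2%, Wilson interval 23.2 to 70.9, against 18.3% of all). The genes of the large subunits, which form the active centre, differed in place. Polr2b (gene ID 231329, chromosome 5, 77310484 to 77349328) had its 3′ end inside a boundary, with its 5′ end 14.5 kb outside. Polr2a, which encodes the largest subunit, was 216 kb away from its closest boundary, within a 1100 kb domain of chromosome 11 with 66 protein-coding genes. Of 5 further Pol II-specific subunits, Polr2j lay whole within a boundary on chromosome 5 and Polr2c lay 7.45 kb from one on chromosome 8. Of the 5 subunits shared with RNA polymerases I and III, Polr2k and Polr2f had an end inside a boundary and Polr2h lay 2.73 kb from one, whereas Polr2l and Polr2e lay 247 and 335 kb away. Polr2m, whose product associates with Pol II rather than forming its core, lay 139 kb away. Sox10, a neural crest transcription factor gene, had an end in the boundary of Polr2f. The count depended on the rule. Measured from the interval's midpoint with a 10 kb window, 1 of 13 was near (7.69%), below the 9.59% of all genes. That rule is stricter: 10 kb on each side of the midpoint does not reach the edges of a 25 kb interval. A gene with an end inside the interval can therefore fail it.

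**Figure D3:**
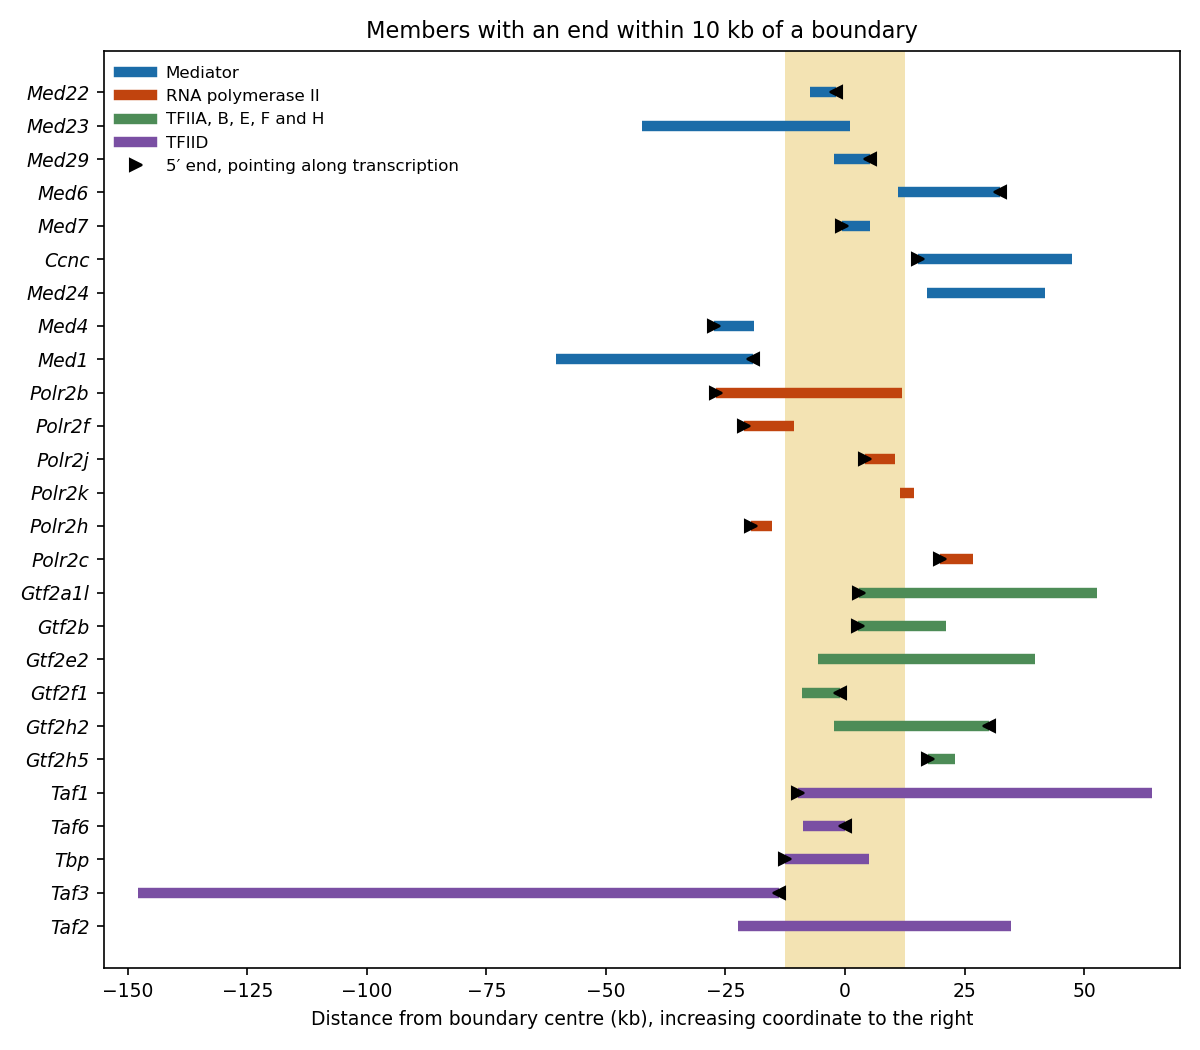
The 26 genes with an end within 10 kb of a boundary, each drawn to scale as a bar at its distance in kb from the centre of its boundary interval (shaded, 25 kb wide), with higher coordinates to the right. Arrowheads mark the 5′ end where the strand is known; Med22, Med29, Med7, Polr2j, Gtf2f1 and Taf6 lie whole within the shaded interval, and Taf2 crosses it.

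Among genes of the factors that assemble with Pol II, 6 of 13 were likewise near (46.2%, Wilson interval 23.2 to 70.9, against 18.3% of all). An end lay inside for 5 of the 13 (38.5%, against 11.7% of all). Gtf2b, the only gene of TFIIB, which links TBP to Pol II, started inside a boundary on chromosome 3 (gene span 142765247 to 142783606). Gtf2f1, the large subunit of TFIIF, lay whole within a boundary on chromosome 17 that also held ends of Pspn and Khsrp, while its partner Gtf2f2 lay 46.9 kb from one. Gtf2e2 had an end inside a boundary on chromosome 8, and the other TFIIE gene, Gtf2e1, lay 435 kb away. In TFIIH, whose core also serves DNA repair, Gtf2h2 had its 3′ end in a boundary with an end of Naip1. Gtf2h5 lay 4.83 kb from a boundary. Gtf2h1, Gtf2h4 and Gtf2h3 lay 51.2, 218 and 229 kb away. In TFIIA, Gtf2a1l, a paralog known from germ cells, started inside a boundary, and Gtf2a2 and Gtf2a1 lay 37.5 and 205 kb away.

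In TFIID 5 of 15 genes were near (33.3%, against 18.3% of all) and 8 of 15 lay within 50 kb (53.3%, against 35.6%). With no window, by gene midpoint or from the boundary's midpoint the count was 3 of 15 (20%). The shares of all genes by these 3 measures were 11.7%, 11.2% and 9.59%. Tbp (gene ID 21374, chromosome 17, 15499888 to 15517427) began 0.113 kb before the boundary at 15500001 to 15525000 and ended inside it, together with an end of Pdcd2. Psmb1, a proteasome gene named here after its position was seen, was also within 10 kb of that interval. Taf1, which encodes the largest TFIID subunit, started inside a boundary on chromosome X that had no other protein-coding gene near it, and its 3′ end was 51.8 kb outside. Taf6 lay whole within a boundary on chromosome 5 with ends of Ap4m1, Cnpy4 and Mblac1. Taf3 had its 5′ end 1.39 kb from a boundary, with a body of 134 kb that ran away from it. Taf2 was the 1 gene of the 75 with a boundary wholly inside its body (1.33%, against 3.49% of all genes), on chromosome 15, and its nearer end was 9.87 kb from that interval. Taf4 and Taf5 lay just outside the window, at 12.1 and 17.7 kb, and Taf7 lay at 30.8 kb. The other extreme was Taf10, at 1093 kb the farthest of the 75, followed by Med25 (532 kb) and Taf13 (518 kb). Beyond 500 kb were 3 of 75 (4%), against 7.29% of all genes.

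Some of these genes shared a domain and some neighbours were parted by a boundary. The midpoints of 65 of the 75 genes lay in a domain, in 59 of the 3283 domains that hold a protein-coding gene, and those of the other 10 lay in boundary intervals (13.3%, against 6.52% of all). Of the 59 domains, 5 held more than 1 of these genes. How many sharing domains other genes would give was not computed. The TFII-I family genes Gtf2i, Gtf2ird1 and Gtf2ird2 shared a 525 kb domain on chromosome 5 with 9 protein-coding genes in all, at 163, 143 and 108 kb from a boundary. They encode paralogous DNA-binding factors outside the core assembly, and these copies are neighbours by descent. Med16 and Polr2e shared an 825 kb domain with 53 protein-coding genes, Gtf2h2 and Taf9 a 375 kb domain with 12, Med18 and Taf12 a 1400 kb domain with 37, and Med20 and Taf8 a 1525 kb domain with 48. Between Med12 and Taf1, 229 kb apart on chromosome X, lay 1 boundary, the interval in which Taf1 starts. Polr2a and Med11, 693 kb apart on chromosome 11, were also parted by 1 boundary, and Med1 and Med24, 511 kb apart, by 2.

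Domain size was close to that of other genes. The genes with a midpoint in a domain had a median domain length of 600 kb (quartiles 400 and 1025 kb), counted per gene, against 675 kb for all protein-coding genes, and a median of 12 protein-coding genes in the domain, as for all genes. The shortest domains, at 200 kb, held Med6, Med4, Taf4 and Med8. The longest, at 2525 kb each, held Gtf2h5 on chromosome 17, with 32 protein-coding genes, and Taf10 on chromosome 7, with 77. Gtf2a1l followed at 1875 kb with 3 genes.

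**Figure D4:**
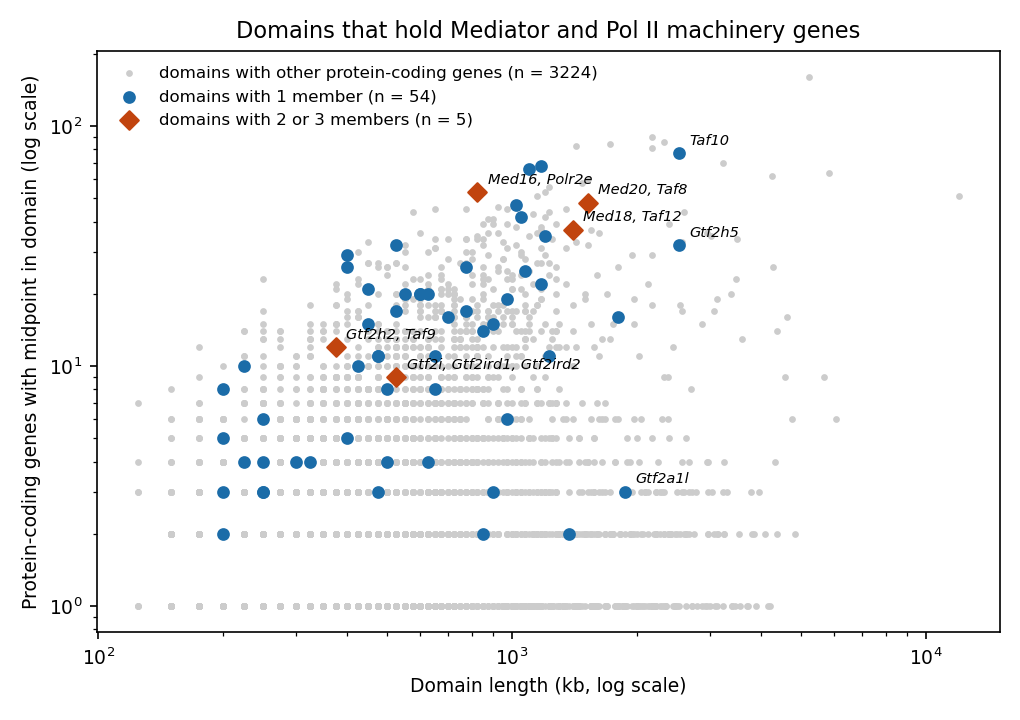
Domain length in kb against the number of protein-coding genes with their midpoint in the domain, both on log scales, for 54 domains with 1 of the genes described (blue), 5 with 2 or 3 of them (red diamonds, named) and 3224 domains with other genes only (grey). The domains of these genes run from 200 to 2525 kb and from 2 to 77 genes.

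Gene starts and gene ends were both found at boundaries. Strand was known from the RefSeq promoter table for 64 of the 75 genes and 17274 of all protein-coding genes. The 5′ end was near a boundary in 17 of 64 (26.6%), against 12.2% of all, and the 3′ end in 14 of 64 (21.9%), against 12.6% of all. Both ends were near in 10 of the 64, against 1152 of the 17274. The 5′ end alone was near in 7 (Taf3, Ccnc, Polr2c, Med1, Gtf2h5, Gtf2a1l and Taf1), against 960 of the 17274. The 3′ end alone was near in 4 (Polr2b, Med6, Gtf2h2 and Med4), against 1017 of the 17274, a similar share. The 5′ end was inside the interval in 9 of 64 (14.1%), against 7.05% of all, and the 3′ end in 11 of 64 (17.2%), against 7.2% of all. Divergent pairs, in which another protein-coding gene starts within 1 kb on the opposite strand, made up 16 of 64 genes (25%), against 10.4% of all. Of these 16 genes, 6 were near a boundary (37.5%), and of the other 48, 15 were (31.2%); for all genes the corresponding shares were 27.5% and 17%. Among the 6 were Med22 with Rpl7a, whose 5′ ends lay 43 bp apart, Med29 with Paf1, and Taf6 with Cnpy4, 84 bp apart.

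The 6 promoters below are examples from each complex with a start site covered by the boundary interval or, for Tbp, 0.113 kb before it. The listed starts of Med7, Gtf2f1, Gtf2a1l and Taf1 were covered too and are not printed, for length. Each runs from 250 bases before the start to 49 after it on the strand of the gene, 5′ to 3′, from RefSeq GRCm38.p6, so the start is base 251. Capitals mark matches, on either strand, to the GC box GGGCGG, the ETS core CCGGAAG, the YY1 motif AAGATGGCG, the TATA box TATAAA and AGGGGGC, which is part of the CTCF consensus. In Polr2j and Taf6 the last of these overlaps a GC box.
Med22, chr2:26910593-26910892, minus strand: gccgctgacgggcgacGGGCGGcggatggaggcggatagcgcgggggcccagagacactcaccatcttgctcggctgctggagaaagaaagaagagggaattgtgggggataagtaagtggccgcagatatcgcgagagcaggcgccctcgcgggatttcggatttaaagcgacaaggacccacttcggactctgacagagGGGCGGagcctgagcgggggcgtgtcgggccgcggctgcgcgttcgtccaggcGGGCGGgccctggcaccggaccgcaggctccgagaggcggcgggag
Med29, chr7:28392641-28392940, minus strand: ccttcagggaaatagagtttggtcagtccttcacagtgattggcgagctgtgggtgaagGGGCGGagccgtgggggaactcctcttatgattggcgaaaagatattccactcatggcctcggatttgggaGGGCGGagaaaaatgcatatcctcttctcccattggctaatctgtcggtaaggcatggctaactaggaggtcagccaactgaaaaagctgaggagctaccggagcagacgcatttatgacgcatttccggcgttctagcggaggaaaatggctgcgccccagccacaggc
Polr2j, chr5:136116441-136116740, plus strand: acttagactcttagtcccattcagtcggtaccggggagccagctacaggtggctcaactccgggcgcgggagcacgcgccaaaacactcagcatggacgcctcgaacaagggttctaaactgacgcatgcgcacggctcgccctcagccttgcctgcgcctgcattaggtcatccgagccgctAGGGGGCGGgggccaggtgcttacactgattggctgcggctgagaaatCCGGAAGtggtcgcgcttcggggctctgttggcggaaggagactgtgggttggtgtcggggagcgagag
Gtf2b, chr3:142764997-142765296, plus strand: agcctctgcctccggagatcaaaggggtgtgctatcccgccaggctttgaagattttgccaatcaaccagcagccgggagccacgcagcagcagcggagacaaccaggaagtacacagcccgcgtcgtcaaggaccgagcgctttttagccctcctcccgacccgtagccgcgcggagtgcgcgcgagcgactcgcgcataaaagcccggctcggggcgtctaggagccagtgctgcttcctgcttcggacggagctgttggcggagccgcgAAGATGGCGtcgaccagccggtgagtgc
Taf6, chr5:138187177-138187476, minus strand: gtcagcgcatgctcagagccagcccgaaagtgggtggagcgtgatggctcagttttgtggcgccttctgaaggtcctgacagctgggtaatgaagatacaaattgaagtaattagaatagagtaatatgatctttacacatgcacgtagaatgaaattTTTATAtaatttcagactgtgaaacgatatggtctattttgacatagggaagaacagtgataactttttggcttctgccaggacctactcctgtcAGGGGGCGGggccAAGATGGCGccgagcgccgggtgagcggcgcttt
Tbp, chr17:15499638-15499937, plus strand: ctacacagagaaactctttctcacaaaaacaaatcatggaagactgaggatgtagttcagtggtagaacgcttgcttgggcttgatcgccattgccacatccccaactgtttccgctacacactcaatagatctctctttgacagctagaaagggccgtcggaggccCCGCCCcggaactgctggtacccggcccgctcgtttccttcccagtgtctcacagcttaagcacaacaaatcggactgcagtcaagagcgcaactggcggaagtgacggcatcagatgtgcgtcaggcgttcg

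The TATA box letters were matched in Taf6 and, among promoters with the start in a boundary that are not printed, in Med7 and Gtf2f1. In Taf6 the match was on the opposite strand, at bases 159 to 164. Med22 had 35 CpG dinucleotides in its 300 bases and 3 GC boxes, and Gtf2b had 32 CpG and no GC box. The YY1 motif followed the start in Gtf2b, at base 273, and in Taf6, at base 267. Polr2j had its ETS core at base 232, just before the start. Taf6 has a second listed start 225 bases upstream of the one shown, whose window held none of these motifs. Over all 75 promoters listed for 64 of the genes, the median CpG count was 23, against 13 for all 21045 protein-coding promoters. A GC box was present in 49 of 75 (65.3%, against 46.7% of all), an ETS core in 22 (29.3%, against 11.7%), the YY1 motif in 5 (6.67%, against 1.84%) and a TATA box in 11 (14.7%, against 12.7%). AGGGGGC, 7 letters out of the consensus of CTCF, the protein that halts cohesin, matched in 7 of 75 (9.33%, against 13% of all). It was sought as 1 fixed string in the promoter windows only, so it does not count CTCF sites. The median CpG count was 22 for the 21 promoters near a boundary, from 17 genes, and 23.5 for the other 54. For all protein-coding promoters near a boundary it was 18.5. Some windows of the same gene overlap, as in Med7 and Gtf2h5, so the same letters are counted more than once. A match is a description of letters, and binding was not measured.

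Gene density and gene length moved with nearness to boundaries among all genes. In 4 classes cut at the quartiles of the number of protein-coding neighbours within 500 kb, the share of all genes near a boundary fell from 26% in the sparsest class to 11.0% in the densest. The genes described here had a median of 17 neighbours, against 15 for all, and were near in 7 of 14, 7 of 20, 6 of 24 and 6 of 17 cases from the sparsest class to the densest. By gene length the share of all genes rose from 10.4% in the shortest class to 23.1% in the longest, and these genes, with a median length of 15.9 kb against 17.4 kb, were near in 5 of 15, 7 of 23, 9 of 21 and 5 of 16 cases. In each of the 8 classes their share was above that of all genes. The part of density and length in the result was not tested beyond these shares. Boundaries with one of these genes near also tended to have other genes there: the 26 near genes had a median of 2 other protein-coding genes near the same boundary, against 1 for all 3935 near genes, and 3 of 26 (Ccnc, Taf1 and Taf2) had none, 11.5% against 29.0%. The most, 6, were at the boundary of Med22.

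**Figure D5:**
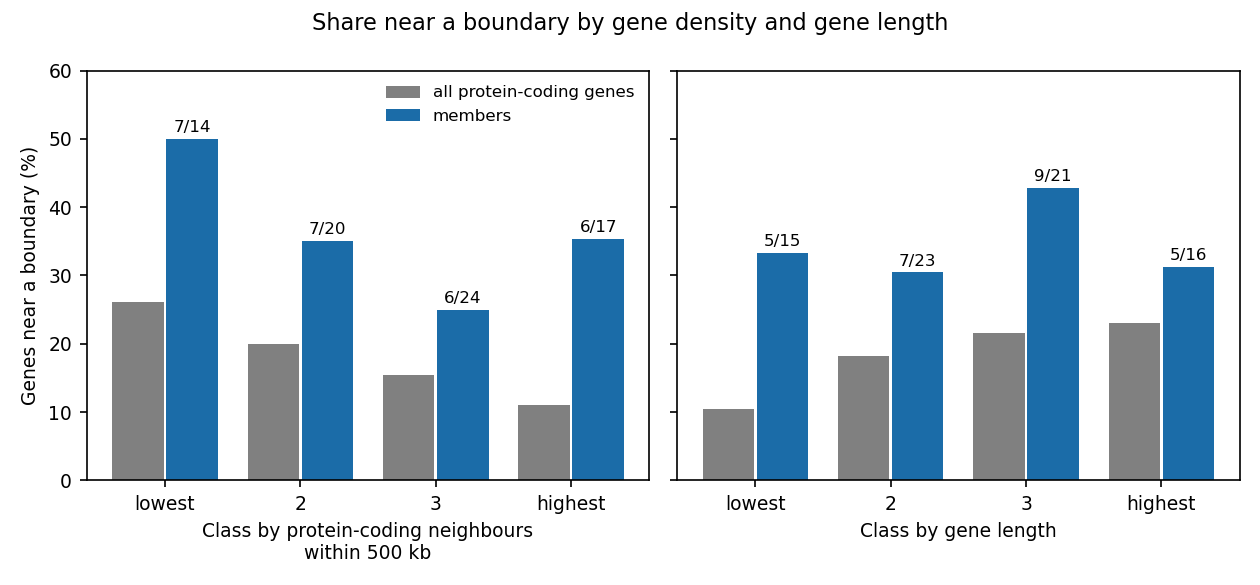
Percent of genes near a boundary in 4 classes cut at the quartiles of all protein-coding genes, by number of protein-coding neighbours within 500 kb (left) and by gene length (right), for all protein-coding genes (grey bars) and the genes described (blue bars, with near over total above each). The blue bar is above the grey one in each class, on 14 to 24 genes a class.

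Another 30 genes of the same machinery, which the symbol rule does not take, were chosen by function with earlier results of these data known. Of these, 9 were near a boundary (30.0%, Wilson interval 16.7 to 47.9), against 18.3% of all protein-coding genes. Med12l and Med13l, the paralogs of the kinase module genes Med12 and Med13, each had an end inside a boundary, whereas Med12 and Med13 lay 224 and 117 kb away. Of the TFIIH subunits outside the Gtf2 symbols, Ercc3, a DNA translocase, and Ccnh, the cyclin of CDK7, had an end inside a boundary. Cdk7 and Ercc2 lay 119 and 232 kb away. Mnat1 had a boundary wholly inside its body, and its nearer end was 62.8 kb from that interval. Of the elongation genes, Paf1, Ctr9 and Nelfe were near, at 0, 3.95 and 0.391 kb. The boundary of Paf1 is the one that holds Med29. Ell fell just outside the window, its nearer end 10.3 kb from a boundary that lies wholly inside its body. The other NELF genes, Nelfcd, Nelfa and Nelfb, lay 90.8, 248 and 364 kb away, and Supt5, Supt6, Cdk9 and Supt4a lay 36.2, 182, 262 and 313 kb away. Of the Taf paralogs, Taf9b and Taf5l were near, at 0 and 3.60 kb, and Taf7l, Taf6l and Taf4b lay 48.5, 49.4 and 133 kb away.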

How the data were processed

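Micro-C libraries were made from G1 ESCs and EpiLCs. The build is mm10, and the tools named are BWA 0.7.17 and Juicer 1.22.01, per the submitters' processing notes. The deposited list analysed gives chromosome, start and end of boundaries from the pooled DMSO-treated ESC libraries. How boundaries were called is not given in the sources used here. Depth is unknown. The growth protocol of ESC dTAG and A485 replicates 4 to 6 mentions EpiLC differentiation, and no library enters a test.

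Genes came from RefSeq GRCm38.p6. Protein-coding genes out of coordinate order, taken as scaffold genes (113), and those on chromosomes without boundaries (266) were left out. Positions are counted from 1. Strand came from the RefSeq promoter table. Domains run from 1 boundary to the next. No set test or chance test was run. The members and lists were chosen with earlier results of these data known. Genes named are those near a boundary, the next closest and the farthest, those sharing a domain, those in the longest and shortest domains, and Polr2a, Polr2b, Med1, Med12, Med14, Med23, Med24, Tbp, Taf1, Cdk8, Ccnc, Gtf2b and Gtf2i. Other genes were named after their values were seen. The distance script was tested on simulated data. The tools were matplotlib 3.10.9, scipy 1.17.1, pandas 2.3.3, numpy 2.4.6 and Python 3.11.15.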

Additional observations from a re-analysis of the deposited data

How the results depend on the processing

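The share of the 75 genes near a boundary was above that of all protein-coding genes in each alternative that gives a share, and their median distance was below that of all in each that gives a distance. Of 57 values recomputed, 44 moved by no more than 1.5-fold, 12 counts moved more than that and 1 turned direction. Some of the 44 could not move. Keeping scaffold genes added none to the 75, and leaving out the TFII-I family and Gtf2a1l takes no Mediator, Pol II or TFIID gene. Autosomes alone cannot change a complex with no gene on chromosome X. The tally also does not follow the gap to all genes: Mediator within 50 kb counts as little moved at 38.7%, against 35.6% of all. With no window the counts near a boundary were 17 for all 75 genes (22.7%), 5 for Mediator (16.1%) and 3 for TFIID (20%), against 11.7% of all. A window of 50 kb gave 8 for TFIID (53.3%, against 35.6% of all). With gene midpoints Mediator had 5 (16.1%) and TFIID 3 (20%), against 11.2% of all, and 10 genes lay inside an interval (13.3%, against 6.52%). With the midpoint of the boundary in place of its edges, a stricter rule, 13 genes were near (17.3%, against 9.59% of all). Of these, 4 were of Mediator (12.9%) and 3 of TFIID (20%). Pol II genes turned below all genes with 1 of 13 (7.69%). With annotated starts only, over 64 genes, 17 were near (26.6%, against 12.2% of all) and 9 inside (14.1%, against 7.05%). With either end over 75 genes the counts were 26 and 17. Adding symbols with letters after the digits gave 31 of 87 near (35.6%, against 18.3% of all), and autosomes alone 25 of 72 (34.7%, against 18.5%). Counting by distinct boundary, chosen after seeing the data, gave 26. A stricter set of boundaries was not run because the list has no score. No paired analysis was possible because the list is pooled and carries no replicates. Complexes of 1 to 15 genes allow wide intervals, and a difference between complexes was not tested.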
